A study of Mus musculus with 11 samples.

Results

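The 5 hearts of Pde2A-/- embryos were compared with each other, to find which genes differed most between animals of one genotype and which genes differed together. They were all the libraries titled as knockouts (KO_A, KO_B, KO_14, KO_D and KO_15, here hearts A, B, 14, D and 15), 5 of the 11 libraries of the series. The other 6 were hearts of Pde2A+/+ embryos and served only as a second group in which the spread was measured. All came from untreated embryos of both sexes of the line B6; 129P2-Pde2A<tm1Dgen> at E14.5, from matings of heterozygous parents, so the allele was carried by the whole embryo and not only by the heart. Each was a stranded mRNA library of 1 embryonic heart, read from one end. Which hearts shared a litter is not given in the sources used here. Pde2A encodes a phosphodiesterase that breaks down cAMP and cGMP.

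The gene groups followed here answer to different signals. When oxygen is short, the prolyl hydroxylases that mark HIF subunits for destruction slow down, and HIF accumulates and raises genes for angiogenesis, glucose use and mitochondrial turnover. Interferons act through STAT and IRF factors on genes that restrict viruses. Red cell precursors express globins, heme enzymes and membrane proteins, and at this stage embryonic globins of yolk sac cells circulate beside adult globins of liver origin. Natriuretic peptides are made by cardiomyocytes under wall stress and signal through cGMP. The samples were whole hearts, so fewer cells of a type and less RNA per cell cannot be told apart.

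Reads assigned to genes numbered 35865537 to 42835382 per knockout heart. Several libraries differed in marker genes of other organs or of sex, and where the transcripts of other organs came from was not tested. Hearts B and D held skeletal muscle genes, heart D held liver genes, and hearts A and 14 were Xist-high while B, D and 15 expressed Y-linked genes. Cardiomyocyte genes marked every library: the mean of 21 contractile and identity genes lay between 9.46 and 9.56 log2 CPM (CPM is the share of a library's reads on genes, scaled to a common total) in all 5 hearts. Pde2a itself could not serve as a check of the labels, since it had 0, 2, 0, 1 and 1 reads in hearts A, B, 14, D and 15 and 0 to 2 reads in the wild-type hearts. It overlaps the annotated gene Gm45837, which had 0 to 1 reads in the knockout hearts and 0 to 2 in the wild-type ones. The share of reads mapping to several places was 11.4% in heart A and 11.6% in heart B against 10.91 to 11.04% in the other hearts, and its part in the results was not tested.

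Genes were tested where their counts summed to 10 or more in the 5 hearts, which left 21330. Of these, 550 (2.58%) varied between the hearts by more than the fitted trend of dispersion with abundance (edgeR goodness-of-fit test against the trended dispersion, Benjamini-Hochberg adjusted p under 0.05). The trend was taken as fixed, so the scatter of genes of the same abundance around it did not enter the test. Counting error alone was exceeded by 12375 genes (58.0%). Among the 550 genes, 517 were protein-coding and 426 averaged 1 CPM or more. The median SD of log2 CPM over the hearts was 0.758 for the 550 genes and 0.145 for the 14006 genes averaging 1 CPM or more, and the median ratio of the highest to the lowest heart was 3.44 against 1.28. In the 6 wild-type hearts, the same test found 848 of 22268 genes (3.81%). Without hearts B and D, which held skeletal muscle or liver genes, 234 genes varied, of which 230 were among the 550. Hearts 14 and 15, kept there, had the highest means of the lung list. These were -0.02 and -0.44 log2 CPM, against -2.21 to -1.95 in A, B and D. Fewer hearts also lower the power of the test, and without any single heart 388 to 422 genes varied. The count differed between tests. The quasi-likelihood test of each dispersion against its prior, which allows for scatter around the trend, called 0 genes (1044 at an unadjusted p under 0.05). DESeq2 marked 137 genes as dispersion outliers, all among the 550.

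One arrangement of the hearts was the most frequent among the 550 genes. When each gene's 5 values were ranked and the widest gap between neighbours was located, hearts A and B lay below the gap and 14, D and 15 above it for 242 genes (44.0%), where 8.05% of all tested genes had that arrangement. The mirror arrangement, with A and B above, held for 22 genes (4.0%) and for 7.75% of all genes. Heart A alone lay below the others for 64 genes (11.6%, against 7.32%), and heart D alone above for 43 (7.82%, against 4.11%). Hearts D and 15 lay above the other 3 for 44 genes (8.0%, against 4.26%), B and D together for 33 (6.0%, against 1.21%), and 14 and 15 together for 20 (3.64%, against 2.01%). Heart 15 alone lay above for 19 genes (3.45%, against 7.65%) and heart 14 alone for 10 (1.82%, against 2.74%). Considering the full sequence of levels, 143 genes (26.0%, against 4.96% of all genes) had A lowest, then B, 14 and D, and 15 highest. Hearts A and 14 were Xist-high, and with genes of the X and Y chromosomes left out, 262 of 585 varying genes had the split between A and B and the other hearts. These hearts were not labelled as belonging to subgroups, so no test of one set against the other was made. Their titles end in a letter (A, B and D) or a number (14 and 15), and the labels do not say what this means.

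**Figure D1:**
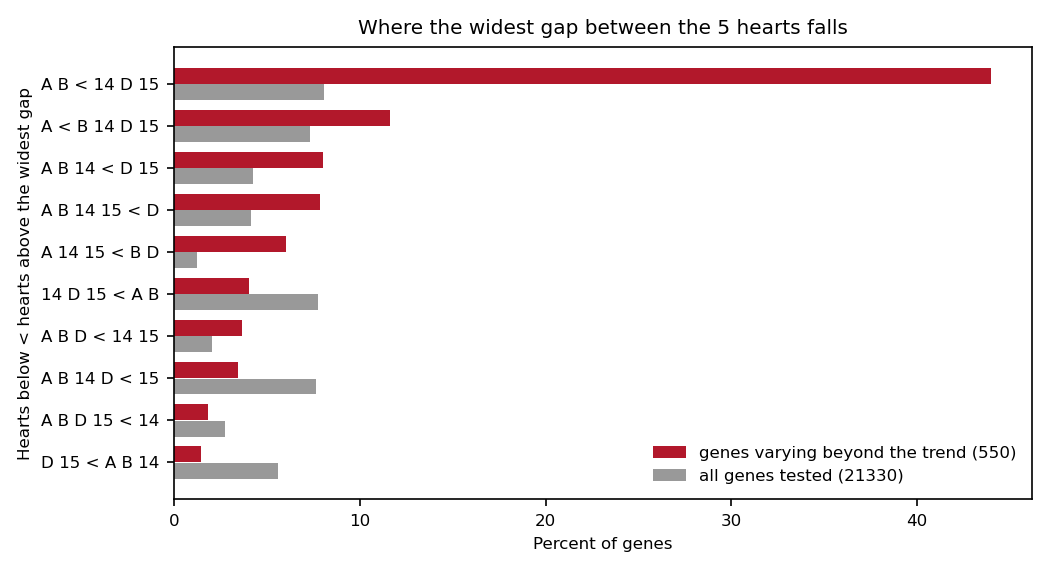
Share of genes (percent, x axis) by the place of the widest gap between the 5 knockout hearts (y axis, hearts below and above the gap), for the 550 genes that varied beyond the trend (red bars) and all 21330 genes tested (grey bars). The arrangement with hearts A and B below 14, D and 15 held 44.0% of the varying genes and 8.05% of all genes.

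Principal components were taken over the 500 most variable genes. The first component held 60.8% of the variance and placed A and 15 at its ends (14.95 and -11.85), with Xist and 4 Y-linked genes among its 10 largest weights beside Ndrg1, Mt2, Slc2a3, Rora and Egln3. After the X and Y chromosomes were left out, the first component held 70.6% and its scores were -12.8 in A, -8.42 in B, 3.05 in 14, 7.05 in D and 11.1 in 15. Its 10 largest weights were on Ndrg1, Mt2, Slc2a3, Rora, Egln3, Gdf10, Kbtbd11, Nmrk2, Hk2 and Fgf23. The second component (16.65%) separated B and D (3.99 and 6.64) from A, 14 and 15 (-4.15 to -2.99), with the skeletal muscle genes Myh3, Myh8, Tnnc2 and Mylpf and the liver genes Afp and Alb among its largest weights.

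The gene lists differ in size and were chosen with earlier results of these data known. All tested members of the small Xist and Y-linked, embryonic globin and lung lists varied. By number, hypoxia-induced genes formed the group with the most varying members. Of 24 such genes that are not glycolytic, 19 varied beyond the trend, and 23 of 24 had hearts A and B both below the other 3 (23.3% of all genes did). Their median SD was 0.68 on the log2 scale, where that of all genes tested was 0.22. The list mean was 5.06 log2 CPM in heart A, 5.38 in B, 6.05 in 14, 6.30 in D and 6.54 in 15, a range of 1.48 or 2.79-fold. Without hearts B and D, 16 of the 24 varied, and without any single heart 17 to 19 did. Markers of other cell types also had A and B both below the other hearts, in 6 of 7 epicardial genes and in 12 of 18 macrophage genes, whose means were 5.27 and 5.34 against 5.80 to 5.86 and 3.13 and 3.37 against 3.52 to 3.62 log2 CPM. Their part in the result was not tested. The promoters of the genes below are shown because these genes moved together and carry copies of the core letters that HIF recognises.

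The promoters (250 bases before the start of transcription, RefSeq on GRCm38.p6, 5′ to 3′ on the gene's own strand) of the mitophagy gene Bnip3, the ankyrin repeat gene Ankrd37, the collagen prolyl hydroxylase gene P4ha2, the glucose transporter gene Slc2a1 and the hexokinase gene Hk2 are given with every ACGTG or GCGTG, on either strand, in capitals. Bnip3 lies at chr7:138909507-138909756 on the minus strand, Ankrd37 at chr8:45999851-46000100 on the minus strand, P4ha2 at chr11:54100674-54100923 on the plus strand, Slc2a1 at chr4:119108495-119108744 on the plus strand and Hk2 at chr6:82774455-82774704 on the minus strand.
Bnip3: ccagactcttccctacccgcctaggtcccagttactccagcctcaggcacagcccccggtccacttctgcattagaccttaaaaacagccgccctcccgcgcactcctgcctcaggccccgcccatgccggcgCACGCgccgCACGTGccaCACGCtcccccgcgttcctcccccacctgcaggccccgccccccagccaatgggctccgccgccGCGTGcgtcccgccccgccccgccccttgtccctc
Ankrd37: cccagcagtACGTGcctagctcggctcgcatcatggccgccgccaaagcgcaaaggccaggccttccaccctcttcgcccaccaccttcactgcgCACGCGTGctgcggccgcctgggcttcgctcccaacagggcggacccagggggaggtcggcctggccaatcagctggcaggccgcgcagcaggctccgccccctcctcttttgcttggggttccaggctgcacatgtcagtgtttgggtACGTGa
P4ha2: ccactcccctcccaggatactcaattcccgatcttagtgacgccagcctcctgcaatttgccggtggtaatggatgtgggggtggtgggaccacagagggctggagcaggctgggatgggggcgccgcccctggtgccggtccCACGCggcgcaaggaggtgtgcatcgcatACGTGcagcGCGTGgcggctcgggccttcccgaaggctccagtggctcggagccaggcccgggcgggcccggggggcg
Slc2a1: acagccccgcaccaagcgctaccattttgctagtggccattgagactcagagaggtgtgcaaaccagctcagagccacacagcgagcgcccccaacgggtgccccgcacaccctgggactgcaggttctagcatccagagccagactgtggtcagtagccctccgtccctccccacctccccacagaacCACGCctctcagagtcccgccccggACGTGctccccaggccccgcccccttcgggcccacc
Hk2: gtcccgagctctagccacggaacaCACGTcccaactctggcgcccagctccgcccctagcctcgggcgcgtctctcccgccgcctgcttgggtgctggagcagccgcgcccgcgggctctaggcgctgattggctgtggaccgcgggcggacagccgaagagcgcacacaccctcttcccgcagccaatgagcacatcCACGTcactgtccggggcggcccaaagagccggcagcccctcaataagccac
Bnip3 held 5 matches counted at every start (the palindrome 107 to 108 bases before the start is read on both strands), Ankrd37 4, P4ha2 3, and Slc2a1 and Hk2 2 each. At least 1 match was present in 12679 of 32851 mouse promoters of this length (38.6%). Of the 19 varying hypoxia genes, 14 had promoter entries, 20 promoters in all, of which 15 (75.0%) held a match. All 24 listed genes gave 24 promoters from 18 genes, of which 17 (70.8%) held one. Of 9 promoters of ribosomal protein genes, a group with no varying member, 5 (55.6%) held one. The 20 promoters were also richer in other letters: 9 (45.0%) held TGCACNC or TGCGCNC, the metal response letters, against 21.4% of all promoters. Such a match is a description of the letters and not of a bound site.

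Ndrg1, a stress-responsive gene of the cytoplasm and a gene widely used to report hypoxia, had 37.8 CPM in heart A, 59.3 in B, 167 in 14, 268 in D and 321 in 15. Its highest value was 8.49 times its lowest, with an SD of 1.36 on the log2 scale (edgeR, adjusted p = 3.0e-37). Each of the 3 hearts 14, D and 15 exceeded both A and B by more than A and B differed.

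Genes whose products restrain HIF were among them. Egln3, one of the HIF prolyl hydroxylases, had 43.1, 63.2, 131, 181 and 220 CPM in hearts A, B, 14, D and 15 (SD 1.003, edgeR adjusted p = 1.5e-20). Egln1, the main oxygen sensor of most cells, had 192, 226, 347, 343 and 458 CPM (SD 0.51, edgeR adjusted p = 2.6e-04). Both are themselves targets of HIF. The HIF subunits and the remaining turnover enzymes (7 genes) gave no varying member, with a median SD of 0.19. Hif3a had the largest SD among them (0.35, edgeR adjusted p = 0.14) at 137, 126, 176, 212 and 212 CPM.

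Secreted factors of the group followed the same hearts. Vegfa, the main angiogenic growth factor, had 121 CPM in A, 179 in B, 285 in 14, 362 in D and 447 in 15 (SD 0.77, edgeR adjusted p = 2.7e-11). Adm, which encodes the vasodilator peptide adrenomedullin, had 8.26, 8.33, 23.97, 28.3 and 35.5 CPM in the same hearts (SD 1.002, edgeR adjusted p = 1.3e-12), so that A and B were alike and 14 stood close to D. The stanniocalcin gene Stc2 ran from 17.5 to 63.7 CPM. Genes of the secretory and matrix machinery did likewise: P4ha2 spanned 41.5 to 157 CPM, Plod2, the lysyl hydroxylase, 108 to 278 CPM, and Ero1l, the oxidase of the endoplasmic reticulum, 46.2 to 174 CPM. Bnip3 spanned 114 to 455 CPM and Ankrd37 7.40 to 22.5 CPM. The 5 members that did not pass were Car9, Angptl4, Higd1a, Mif and Car12, whose ratios of highest to lowest heart were 1.33 to 2.66.

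**Figure D2:**
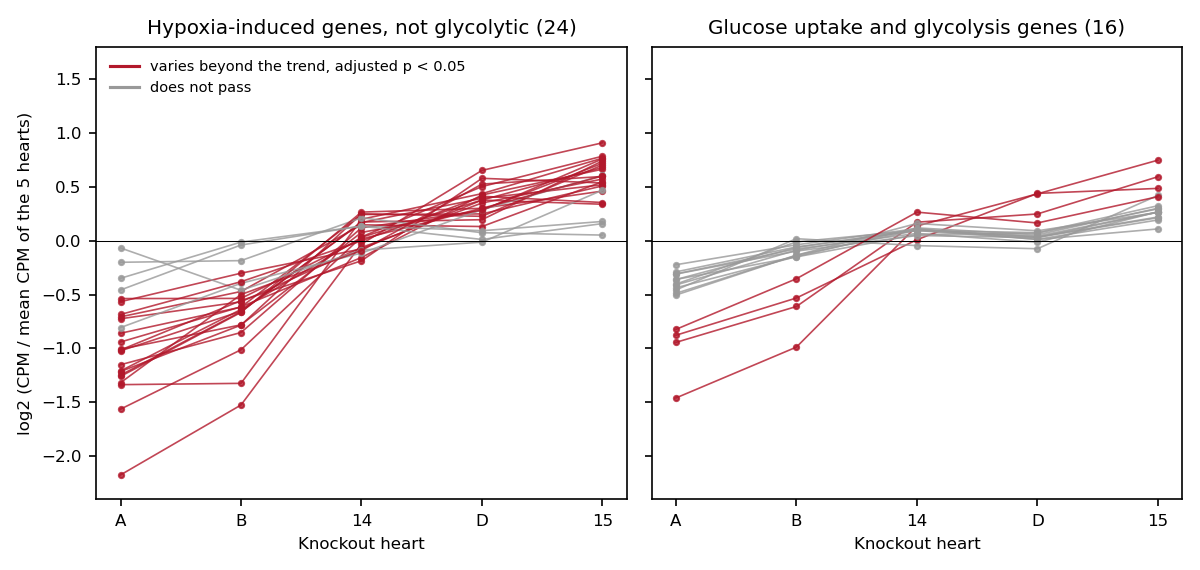
Level of each gene relative to its mean over the 5 knockout hearts (y axis, log2 ratio of CPM) in each heart (x axis), for 24 hypoxia-induced genes that are not glycolytic (left) and 16 genes of glucose uptake and glycolysis (right). Lines join the values of 1 gene and hearts have no inherent order; red marks genes that varied beyond the trend (19 of 24 and 4 of 16). Hearts A and B lie below the other 3 for 23 of 24 and 15 of 16 genes.

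Genes of glucose uptake and glycolysis shared the arrangement at a smaller size. Of 16, 4 varied beyond the trend and 15 had A and B below the other hearts, with all 16 lowest in A, and without B and D the count was again 4. Their median SD was 0.27 and the list mean ranged over 0.88 on the log2 scale, from 8.42 in A to 9.30 in 15. The 4 act at the entry, at regulated steps and at the exit of the pathway. Hk2, hexokinase 2, had 130, 181, 395, 486 and 603 CPM in hearts A, B, 14, D and 15 (SD 0.95, edgeR adjusted p = 5.4e-18). Slc2a1, glucose transporter 1, had 291, 367, 631, 666 and 846 CPM (SD 0.64, edgeR adjusted p = 2.1e-07). Pfkfb3, which makes the activator of phosphofructokinase, spanned 42.0 to 108 CPM, and the lactate exporter Slc16a3 187 to 439 CPM. The abundant enzymes of the lower pathway did not pass: Ldha spanned 1590 to 2437 CPM (1.53-fold) and Pgk1 436 to 698 CPM (1.60-fold).

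Outside the list of 24, 102 varying genes that averaged 5 CPM or more had the same sequence of hearts as the hypoxia mean, Hk2, Slc2a1 and Pfkfb3 included. Slc2a3, a high-affinity glucose transporter, had 39.8, 51.9, 133, 158 and 256 CPM (SD 1.13, edgeR adjusted p = 2.4e-27). Zbtb16, a zinc finger repressor, had 3.10, 3.40, 11.6, 13.7 and 19.6 CPM. Rora, a nuclear receptor of the clock, had 16.2, 21.1, 56.6, 69.8 and 96.0 CPM. In each of the 3, the widest ratio between neighbouring hearts was that of 14 to B. The clock gene Ciart also followed, from 2.40 CPM in A to 12.5 in 15, as 1 of 2 varying members among 9 clock genes.

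Metallothioneins, which bind zinc and rise with metals, glucocorticoids and hypoxia, were among the genes of largest spread. Mt2 had 24.1, 49.1, 89.4, 139 and 177 CPM in hearts A, B, 14, D and 15 (SD 1.17, edgeR adjusted p = 3.7e-28), and Mt1 had 47.2, 77.4, 132, 173 and 223 CPM (SD 0.90, edgeR adjusted p = 2.5e-16). The zinc exporter gene Slc30a1 stayed under 1 CPM and did not pass. The Mt2 promoter (chr8:94172368-94172617, plus strand) is shown with the metal response letters TGCACNC or TGCGCNC, on either strand, in capitals, since Mt2 had the second largest weight on the autosomal first component.
Mt2: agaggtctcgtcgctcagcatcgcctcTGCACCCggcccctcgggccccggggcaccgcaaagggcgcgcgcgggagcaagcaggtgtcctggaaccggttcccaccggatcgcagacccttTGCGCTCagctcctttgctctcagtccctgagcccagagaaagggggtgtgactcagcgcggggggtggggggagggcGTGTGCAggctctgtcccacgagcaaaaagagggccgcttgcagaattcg
It held 3 matches, and 21.4% of all mouse promoters of this length held at least 1.

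Interferon-stimulated genes also varied, with another arrangement. Of 36, 16 varied beyond the trend, and all 36 were lowest in heart A, whereas 23.5% of all tested genes were. The highest value was in heart 15 for 26 genes and in heart B for 6, where 26.4% and 18.8% of all tested genes had it. The list mean was 2.47 log2 CPM in A, 3.50 in B, 3.49 in 14, 3.22 in D and 3.81 in 15, a range of 1.33 or 2.52-fold, and the median SD was 0.51. Only 4 of the 36 had both A and B below the other hearts, and heart B, low for the hypoxia genes, lay beside 14 here. This variation rested on heart A: without it the range was 0.59 and 3 of the 36 varied. Without heart 15, 10 of the 36 varied, and without B and D 14 did.

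The group spanned sensors, regulators and effectors. Irf7, the factor that amplifies the response, had 6.13 CPM in A, 20.4 in B, 18.6 in 14, 14.99 in D and 22.7 in 15 (SD 0.76, edgeR adjusted p = 4.8e-05). Isg15, the ubiquitin-like modifier, had 7.72, 37.6, 31.2, 17.0 and 30.5 CPM (SD 0.93, edgeR adjusted p = 2.3e-10), and Usp18, which removes it from proteins, had 2.97, 9.22, 9.92, 6.66 and 12.9 CPM. Heart A was lowest and D next lowest for all 3. Among effectors, Ifit3 had 2.63, 5.87, 6.42, 5.32 and 12.8 CPM, Oasl2 spanned 14.3 to 42.4 CPM and Bst2, which tethers budding virions, 25.7 to 63.5 CPM. Ifit3 and Ifit3b are close copies, as are members of the Oas group, and reads that map to several copies were not counted.

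The promoters of Isg15 (chr4:156200819-156201068, minus strand) and Ifit3 (chr19:34583279-34583528, plus strand) are shown as examples of the group, with the interferon response letters (GAAA, any 2 bases, GAAA again, on either strand) in capitals.
Isg15: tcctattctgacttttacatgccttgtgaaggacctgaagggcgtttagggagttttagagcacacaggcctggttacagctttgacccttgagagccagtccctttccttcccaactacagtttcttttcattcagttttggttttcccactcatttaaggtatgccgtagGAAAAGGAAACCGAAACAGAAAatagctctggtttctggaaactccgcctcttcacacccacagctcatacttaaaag
Ifit3: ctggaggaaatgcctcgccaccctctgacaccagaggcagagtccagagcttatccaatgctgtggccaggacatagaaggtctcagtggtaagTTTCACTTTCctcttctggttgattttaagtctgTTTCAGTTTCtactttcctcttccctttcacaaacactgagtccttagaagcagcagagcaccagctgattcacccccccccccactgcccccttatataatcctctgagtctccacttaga
Isg15 held 3 overlapping matches and Ifit3 2. Of the 36 listed genes 26 had promoter entries, 29 promoters in all, of which 14 (48.3%) held a match. Across all 32851 promoters 978 (2.98%) held one.

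Erythroid genes had few members past the test. Of 17 red cell membrane, surface and enzyme genes, 3 varied beyond the trend, 16 were lowest in heart A and 13 were highest in heart B. Of all tested genes 2.58% varied, 23.5% were lowest in A and 18.8% were highest in B. The list mean was 5.05 log2 CPM in A, 5.92 in B, 5.72 in 14, 5.52 in D and 5.69 in 15, a range of 0.87 or 1.83-fold. Without heart A the range was 0.40 and 0 of the 17 varied, and likewise 0 varied without B and D or without 14. Pklr, red cell pyruvate kinase, had 21.01, 42.8, 44.7, 35.5 and 40.7 CPM in hearts A, B, 14, D and 15 (SD 0.45, edgeR adjusted p = 0.040), and Slc4a1, the anion exchanger band 3, 233, 487, 403, 369 and 404 CPM (SD 0.40, edgeR adjusted p = 0.047). For both, the gap between heart A and the next lowest heart was wider than the span of the other 4.

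All 6 erythroid transcription factors were lowest in heart A and 5 were highest in B, although none of the 6 passed the test (median SD 0.37). Among all tested genes these shares were 23.5% and 18.8%. Klf1, the activator of adult globin genes, had 11.1, 24.3, 21.3, 14.6 and 16.6 CPM (edgeR adjusted p = 0.13). Gata1, the master factor of the lineage, had 7.61, 14.7, 12.98, 10.1 and 11.03 CPM (edgeR adjusted p = 0.78). Of 9 heme enzymes 8 were lowest in A and 8 highest in B, with none past the test. Adult globins (4 genes, 0 past the test) were likewise lowest in A: Hbb-bs had 1262, 2207, 1802, 2127 and 2221 CPM.

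Embryonic globins did not follow the other erythroid genes. All 3 varied, were lowest in heart 14 and highest in heart D. Hbb-y had 2335, 1700, 1503, 3256 and 2951 CPM in hearts A, B, 14, D and 15 (SD 0.49, edgeR adjusted p = 1.0e-03), Hba-x had 215, 175, 169, 380 and 375 CPM (SD 0.58, edgeR adjusted p = 2.8e-06) and Hbb-bh1 had 33.6, 27.2, 23.0, 47.9 and 44.1 CPM (SD 0.45, edgeR adjusted p = 0.020). Hearts D and 15 thus stood above the other 3 for all 3 genes. The mean of the 3 genes ranged more widely in the wild-type hearts, over 2.16 log2 against 1.11 in the knockout. Without heart 14, and without B and D, only Hba-x passed, and Hbb-bh1 did not pass without D. Adult alpha globins Hba-a1 and Hba-a2 are near-identical copies, and their separate values are uncertain.

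Natriuretic genes varied in 1 member of 7. Nppb, which encodes B-type natriuretic peptide, had 96.1 CPM in heart A, 217 in B, 419 in 14, 351 in D and 482 in 15, a 5.02-fold span (SD 0.94, edgeR adjusted p = 4.6e-16). Here B lay between A and the other 3 hearts. Nppa, which encodes atrial natriuretic peptide, had 1783, 3090, 3132, 2734 and 2939 CPM (SD 0.34, edgeR adjusted p = 0.28), with heart A alone below and the other 4 close together. The receptors and the convertase were steadier: Npr3, the clearance receptor, had 242, 240, 183, 242 and 171 CPM (1.42-fold), Corin 118 to 156 CPM, Npr1 28.5 to 34.6 CPM and Npr2 30.8 to 32.7 CPM, and Nppc stayed under 1 CPM. The list mean spanned 5.76 to 6.18 log2 CPM, a range of 0.42, with A lowest and D and 15 highest (6.17 and 6.18). Without heart A the range was 0.16. The members did not share the order of the hypoxia mean. Of the 7, 3 were highest in A, 2 had A and B both below the other hearts and 0 had the full order. Among the 24 hypoxia genes, 15 had it.

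**Figure D3:**
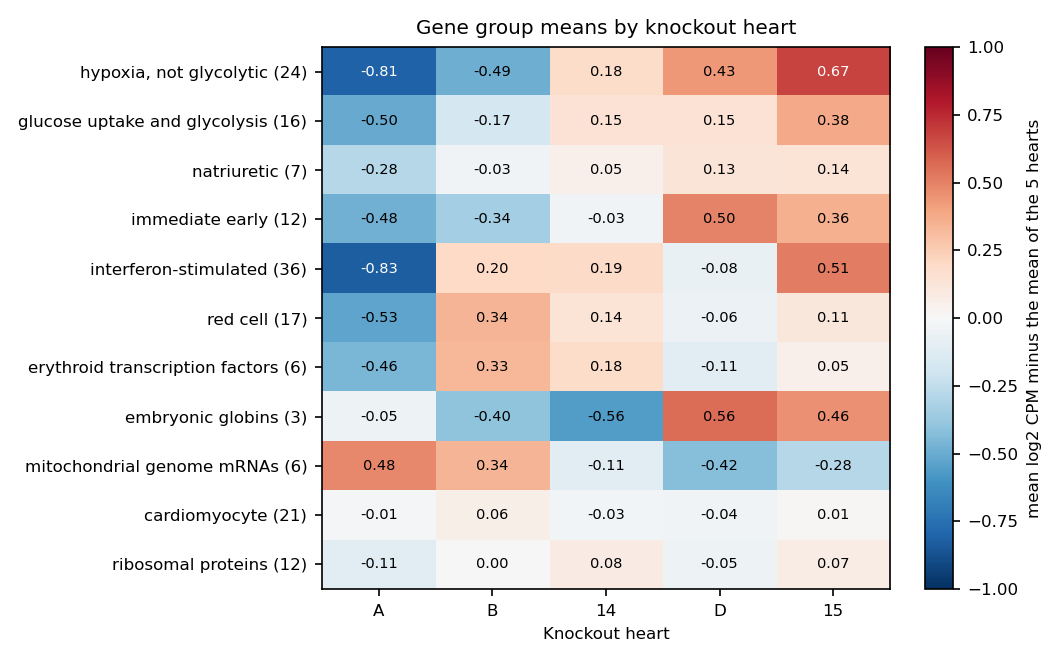
Mean log2 CPM of each gene group (rows, number of genes in brackets) in each knockout heart (columns), as the difference from the mean of the 5 hearts (colour scale and printed values). The hypoxia mean runs from -0.81 in A to 0.67 in 15, the interferon mean is lowest in A (-0.83), embryonic globins are highest in D (0.56), mitochondrial mRNAs run the other way (0.48 in A, -0.42 in D), and cardiomyocyte genes stay between -0.04 and 0.06.

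Transcripts of the mitochondrial genome went the other way. All 6 measured were above the other hearts in both A and B, as were 23.4% of all genes tested. Of the 6, 3 varied, and the list mean was 12.06 log2 CPM in A, 11.92 in B, 11.47 in 14, 11.16 in D and 11.30 in 15. mt-Nd1, a subunit of complex I, had 4445, 4172, 2639, 1876 and 2092 CPM (SD 0.57, edgeR adjusted p = 9.0e-06). mt-Cytb, the cytochrome of complex III, had 6871, 5940, 4220, 3403 and 3606 CPM (SD 0.45, edgeR adjusted p = 4.1e-03). Mitochondrial genes mt-Co2, mt-Co3 and mt-Atp6 had 0 counts in these hearts and were not tested. Without B and D, 1 of the 6 varied. The mean of 12 ribosomal protein genes ranged over 0.19 and was lowest in A.

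The varying immediate early and heat shock genes were highest in D and 15. Of 12 immediate early genes 5 varied: Nr4a1, an orphan nuclear receptor, had 15.2, 17.0, 27.9, 60.2 and 51.4 CPM (SD 0.90, edgeR adjusted p = 7.8e-14), and Fos, a subunit of AP-1, 4.59, 6.00, 7.78, 17.4 and 16.1 CPM (SD 0.85, edgeR adjusted p = 6.2e-07). Of 9 cytosolic heat shock genes, the stress-inducible pair Hspa1a and Hspa1b varied, with 1.98, 2.61, 3.56, 11.8 and 6.50 CPM for Hspa1a, and neither passed without heart D. Without B and D, 3 of the 12 immediate early genes varied. Of 16 inflammation genes 4 varied, and 0 did without B and D. The chemokine gene Ccl3 (0.209, 0.0698, 0.174, 1.504 and 0.412 CPM) was highest in D as well and did not pass without D. The monocyte attractant Ccl2 was highest in heart 14 (9.38, 6.49, 21.2, 10.6 and 13.5 CPM, edgeR adjusted p = 1.1e-03).

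Fgf23, a phosphate-regulating hormone of bone, had 0.782 CPM in A, 1.09 in B, 4.60 in 14, 4.43 in D and 15.7 in 15 (SD 1.72, edgeR adjusted p = 1.4e-22). Its widest gap lay between B and D, and heart 15 was the highest. Other genes of large spread with A and B low were Nmrk2, a nicotinamide riboside kinase (1.77 to 20.1 CPM, highest in 15), Has3, a hyaluronan synthase (3.002 to 22.96 CPM, highest in 15), and Gdf10, a growth factor of the TGF-beta family (5.87 to 46.7 CPM, highest in D). Gdf10 spread as widely in the wild-type hearts (SD 1.39, against 1.34 in the knockout), where Nmrk2 and Has3 had SDs of 0.39 and 0.52. Genes that stood alone below in heart A included Arg1, arginase 1 (0.130 CPM against 1.25 to 3.46 in the others), and Agtr2, the type 2 angiotensin receptor (0.521 against 3.47 to 7.35). Neither passed without heart A. The SD of Agtr2 was 1.42 in the knockout and 1.66 in the wild-type hearts, and that of Arg1 was 1.67 and 0.78. Heart 14 alone was low for the pericyte gene Rgs5 (19.7 CPM against 42.3 to 58.0), which did not pass without heart 14.

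**Figure D4:**
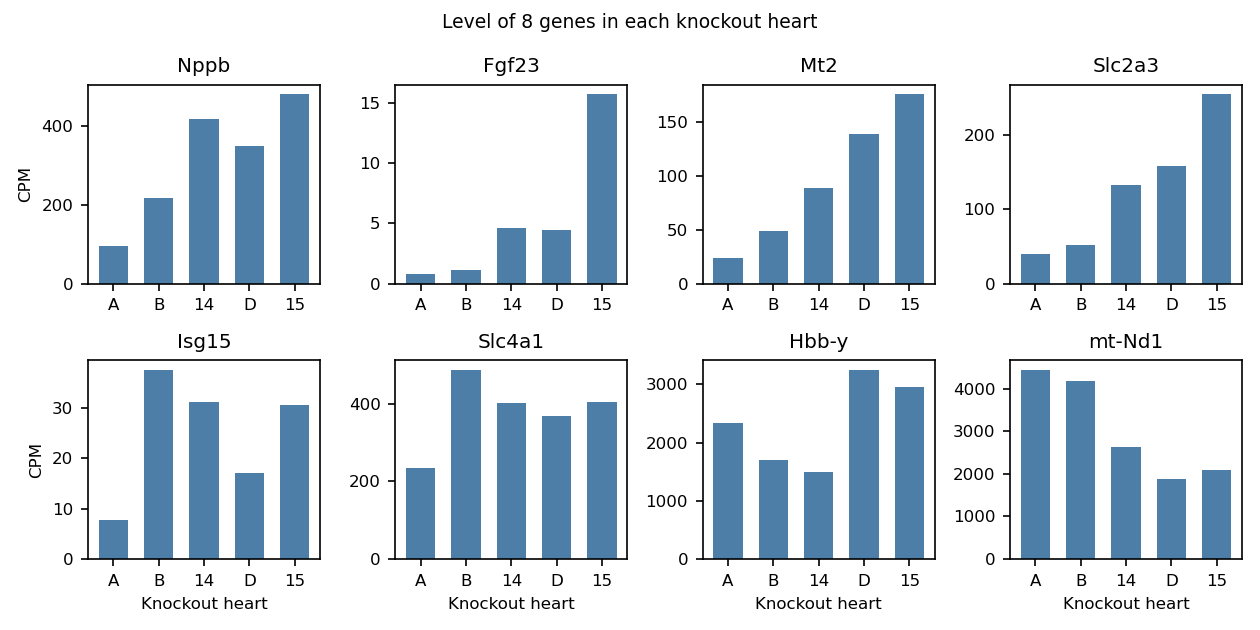
Level (CPM, y axes from 0, each on its own scale) of 8 genes in each knockout heart (x axis), 1 bar for 1 heart. Nppb, Fgf23, Mt2 and Slc2a3 are highest in heart 15 and lowest in A, Isg15 and Slc4a1 are lowest in A and highest in B, Hbb-y is highest in D, and mt-Nd1 is highest in A.

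Lists of cardiac cell types held 0 to 3 varying genes each. Means of the atrial, epicardial, smooth muscle and fibroblast lists ranged over 0.76, 1.11, 0.64 and 0.49 log2 in the wild-type hearts. In the knockout these ranges were 0.65, 0.58, 0.52 and 0.42. The angiogenic list went the other way, with 0.34 in the wild type and 0.78 in the knockout. Of 21 cardiomyocyte genes 1 varied (Myh6, 2912 to 5265 CPM, edgeR adjusted p = 0.043, a call lost without A, B, 14 or 15), and of 6 ventricular genes none did. Of 7 atrial genes 2 varied: Bmp10, which drives trabecular growth, had 218, 237, 495, 517 and 504 CPM (SD 0.63, edgeR adjusted p = 5.0e-07), and Sln, the inhibitor of the calcium pump in atria, had 21.2, 24.3, 49.2, 33.0 and 42.3 CPM (edgeR adjusted p = 1.9e-03). No endothelial gene of 12 varied, while 3 of 8 angiogenic tip cell genes did (Esm1, Angpt2 and Apln), a count that was 0 without B and D and 1 without heart 15. Of 8 smooth muscle and pericyte genes 2 varied, Rgs5 and Myh11, the smooth muscle myosin, which had 6.26, 5.47, 6.04, 13.8 and 18.4 CPM (edgeR adjusted p = 3.0e-06) and was high in D and 15. Of 7 epicardial genes 2 varied, Lrrn4 (29.0 to 59.3 CPM) and Msln (31.0 to 72.5 CPM). The collagen gene Col1a1 was the 1 of 10 fibroblast genes that varied (1728 to 3634 CPM, highest in D) and did not pass without D. Of 18 macrophage genes Lyve1 alone varied (11.8 to 28.9 CPM, edgeR adjusted p = 0.031), and it did not pass without A, 14 or 15. Ribosomal protein genes (12), heme enzymes, cell cycle genes (12) and p53 targets (8) gave no varying member. The quietest genes of at least 50 CPM included Ubap2l, at 208, 210, 208, 209 and 207 CPM.

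The genes of the widest spread included markers of sex and of other organs. Xist, the RNA that silences an X chromosome in females, had 372 and 403 CPM in hearts A and 14 and at most 0.137 in the others, and the Y-linked Ddx3y had 99.1, 120 and 124 CPM in B, D and 15 against at most 0.104. Myh3, embryonic skeletal myosin, had 0.391, 70.0, 1.34, 87.0 and 2.30 CPM in hearts A, B, 14, D and 15, and Tnnc2, fast skeletal troponin C, 0.209, 10.01, 0.199, 5.40 and 0.549 CPM. Hearts B and D therefore stood apart, and 5 of 7 skeletal muscle genes varied. The fetal liver genes Afp and Alb had 21.2 and 11.6 CPM in heart D and at most 0.412 in the other hearts, and 4 of 7 liver genes varied. Of the lung and airway genes, Cdh1 was highest in heart 15 at 2.28 CPM and Epcam in heart 14 at 1.49 CPM. The liver makes red cells at this stage, and heart D, which held the liver genes, was second lowest for the red cell mean and highest for the means of the embryonic and the adult globins (10.14 log2 CPM in D and 9.38 to 10.09 in the others for the adult ones). Whether these transcripts came from admixed tissue was not tested. The part of such tissue in these results was examined only by the counts without B and D. Leaving out B and D kept hearts 14 and 15, which had the highest lung list means. It also removed hearts from both sides of the most frequent arrangement and lowered the power. Those counts therefore cannot tell admixed tissue from lost power.

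**Figure D5:**
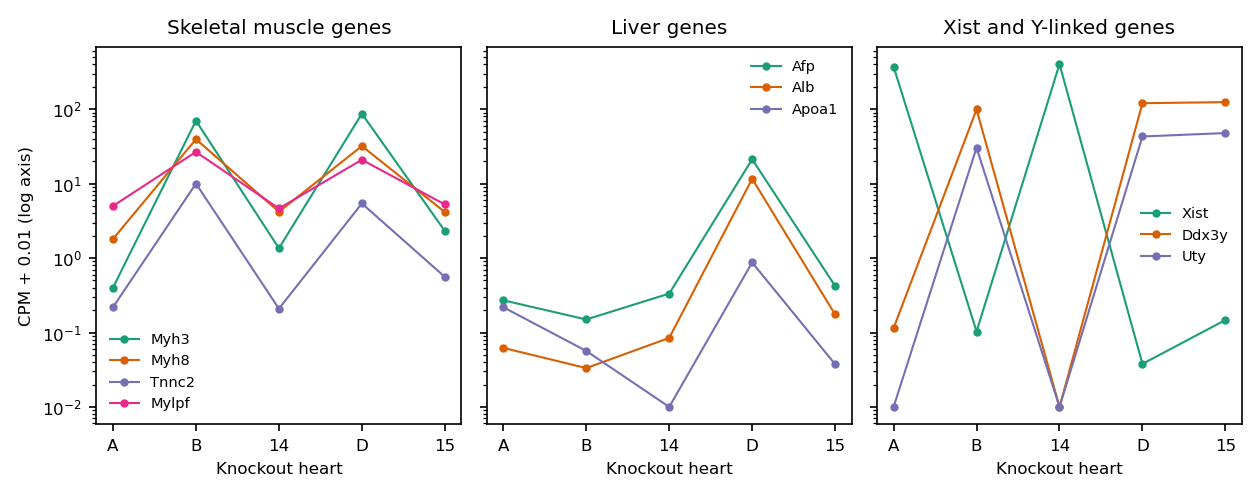
Level (CPM plus 0.01, log axis) of 4 skeletal muscle genes, 3 liver genes and Xist with 2 Y-linked genes in each knockout heart (x axis). Muscle genes are high in B and D, liver genes in D, Xist in A and 14, and Y-linked genes in B, D and 15. Lines only join the values of 1 gene.

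Whether the knockout hearts spread more widely than the wild-type hearts was tested on absolute deviations of log2 CPM from the genotype mean, over 24177 genes (limma, two-sided, Benjamini-Hochberg). The spread was wider among knockout hearts for 347 genes (1.44%) and narrower for 84 (0.347%). The common edgeR coefficient of variation over all genes was lower in the knockout, at 15.66% against 18.06%. Wild-type hearts also differed in genes of other organs. Their lung and liver list means ranged over 6.22 and 4.8 log2, against 2.19 and 3.34 in the knockout. Skeletal muscle went the other way (1.57 against 3.16), and the part of these genes was not tested. Without wild-type heart 7 the counts were 31 and 14. Of the 24 hypoxia genes 23 had the larger SD in the knockout (58.6% of the genes tested in the knockout did) and 7 passed, with median SDs of 0.67 and 0.15. Their mean ranged over 1.49 log2 in the knockout and 0.26 in the wild-type hearts. Hilpda, a lipid droplet protein, had SDs of 0.72 and 0.06 (limma adjusted p = 0.015) and Ero1l of 0.80 and 0.08 (limma adjusted p = 0.015). Vegfa had SDs of 0.77 and 0.14 (limma adjusted p = 0.044). Of the interferon genes 29 of 36 had the larger SD in the knockout but 0 passed, and the ranges of their mean were 1.34 and 0.68. Red cell genes went the other way, with 4 of 17 larger in the knockout, 0 past the test in either direction, and ranges of 0.89 and 1.44. For Nppb the SDs were 0.94 and 0.53 (limma adjusted p = 0.53). These counts are not stable: with deviations taken from the median in place of the mean 0 genes passed in either direction, and without heart A or B the wider count was 5 or 9, while without heart 14 it was 1551.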

How the data were processed

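The authors sequenced embryonic heart mRNA and deposited, for each of 11 libraries, raw read counts per gene from STAR (GRCm38, per the labels), uniquely mapped reads only. The counts of the second read strand were used, as the kit is stranded. Of 55487 gene identifiers, 55227 were named from GENCODE M21. The 5 knockout hearts formed the group, and the 6 wild-type hearts entered only the comparison of spread. Members and gene lists were chosen with earlier results of these data known.

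Genes whose counts summed to 10 or more in the knockout hearts were fitted with edgeR 4.0.16 (TMM, intercept only, trended dispersion), and the deviance was tested one-sided with Benjamini-Hochberg adjustment. CPM used TMM library sizes, and SDs are of log2 CPM with a prior count of 2. Differences in spread were tested with limma 3.58.1. Principal components used the DESeq2 1.42.0 variance stabilizing transformation of 500 genes. Genes named are the members of largest SD in each list (all members for natriuretic, hypoxia and globin genes), those of largest and smallest spread, those standing alone in 1 heart, those in the order of a list mean and those of largest weight; other list members were chosen after their values were seen. Reads per heart on genes were 35865537 to 42835382. On simulated counts with no gene changed, 0 of 20860 genes were called, and with 1 heart raised 4-fold 196 of 200 were recovered. The simulated counts were drawn at the trended dispersion itself. They therefore cannot show how often the ordinary scatter of genes around that trend is called. Alternatives covered scaling, filters, tests, strands and left-out hearts. Results of some genes are not reported here.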

Additional observations from a re-analysis of the deposited data

Results flagged for a closer look

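Of 234 series of 5 values tested, 10 had a heart whose gap to its neighbour, as a share of the range, passed Dixon's limit of 0.71, and chance passes about 1 in 20. Over all tested genes 4.05% passed. Heart D stood high for Afp (0.812), Alb (0.79), the mean of the liver genes (0.817) and Insig1 (0.791). Heart A stood low for Nppa (0.759) and the heme enzyme gene Cpox (0.732) and high for Rag1 (0.777). Heart B stood high for Ckmt2 (0.766) and low for Ap3b2 (0.72), and heart 14 stood high for Atxn1l (0.776).

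Reads antisense to genes, which entered only the alternative that counted both strands, made up 4.919% of the reads in heart 14, above the highest wild-type share of 4.726%.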

How the results depend on the processing

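The 550 varying genes became 12375 against counting error alone, 0 with the quasi-likelihood test, 137 with DESeq2 and 234 without hearts B and D (an alternative chosen after seeing the data), and 388 to 422 without 1 heart. The wider-spread count of 347 was 0 with deviations from the median, 177 with a prior count of 0.5, 739 among genes of at least 1 CPM (chosen after seeing the data) and 5 to 1551 without 1 heart. The narrower-spread count of 84 was 0, 17 with filterByExpr, 35 at 1 CPM and 0 to 79 without 1 heart. The first component held 43.64% on log2 CPM and 52.05 to 74.8% without 1 heart. Without 1 heart, the ranges of list means were 1.15 to 1.48 for hypoxia, 0.59 to 1.33 for interferon, 0.4 to 0.88 for red cells and 0.16 to 0.42 for natriuretic genes, whose range was 0.7 with the list median. For each of these lists the lowest range was the one without heart A. The causes were not tested. Of 102 named genes that varied, 49 did so under every alternative other than the quasi-likelihood and DESeq2 ones. No paired analysis was made because the sources used here do not say which hearts shared a litter. At these depths counts under 10 over the 5 hearts were not tested.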
